A study of Mus musculus with 2 samples.

Results

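Chromatin contacts between pairs of DNA elements that both lie away from coding genes were described in mouse microglia, the resident macrophages of the brain. A member was an interaction in which neither 10 kb anchor overlapped the span of a protein-coding gene extended by 1 kb on each side, with 21887 coding genes taken from the RefSeq annotation of GRCm38. Of 19061 interactions called in microglia of sham-operated mice, 1551 were members, and of 42905 called at day 6 after a stroke, 2949 were. Interactions with a coding gene at 1 anchor (6190 and 11956) or at both anchors (11320 and 28000) served for comparison.

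The study profiled wild-type male C57BL/6J mice of 8 to 24 weeks by HiChIP, in which cross-linked chromatin is ligated by proximity and then enriched with an antibody, here 2 µg against H3K27ac. In the day 6 group the middle cerebral artery had been occluded (MCAO) for 60 minutes and then reperfused, and the sham group had the surgery without the occlusion. From a hemisphere of each, 200000 to 300000 CD45(int)CD11b(int) cells were sorted, and the libraries were amplified with 14 PCR cycles. Each group had 1 library, how many animals it came from is not stated in the sources used here, and no difference below has a replicate check or a test. The sham list summed to 501608 contacts and the day 6 list to 1074041. These are sums over called interactions only. The totals of contacts in the caller's model had the opposite order, at 3.63e+06 in sham and 2.26e+06 at day 6.

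Acetylation of lysine 27 of histone H3 marks active promoters and active enhancers, the distal DNA elements that bind transcription factors and raise the transcription of genes elsewhere on the chromosome. In macrophages and microglia such elements are opened by lineage factors such as PU.1 and C/EBP and by signal-dependent factors such as AP-1, and several elements around 1 gene often contact each other as well as the promoter. An element without a coding gene may still hold the start of a long non-coding RNA (lncRNA) or a microRNA.

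Marker genes of microglia were the only set with a called interaction at every gene. All 12 microglial marker genes (among them P2ry12, Tmem119 and Cx3cr1) had a called interaction in both lists, against 43.0% of all coding genes in sham and 61.3% at day 6. Of the marker genes of other cells, 2 of 8 neuronal genes had one in sham and 4 at day 6, as did 4 of 6 astrocyte genes in both lists, 3 of 8 oligodendrocyte genes in both, 4 of 6 endothelial genes in both, and 3 and then 5 of 8 genes of monocytes and border macrophages. The astrocyte and endothelial shares, and at day 6 that of monocytes and border macrophages, also lay above those of all coding genes. This measure alone thus does not identify the cells. Contacts summed over the microglial genes were 3439 in sham and 4198 at day 6. Over the monocyte and border macrophage genes they were 320 and 470, and over the endothelial genes 117 and 461. Neuronal genes had 217 and 248, astrocyte genes 349 and 636 and oligodendrocyte genes 367 and 587. Only the endothelial sum grew more than that of the whole list. As the coding gene nearest to a member's anchor, no neuronal marker occurred in either list, and the markers of the other 4 cell types together gave at most 2 genes per type. The part of other cells in the results below was not tested.

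Sequence at the most connected members is shown first, because many of these bins held the start of an lncRNA. An lncRNA start lay in 267 of the 2083 sham anchors of members (12.8%) and in 499 of the 3844 day 6 anchors (12.98%). The windows below run from 250 bases before to 50 after an annotated start (RefSeq, GRCm38.p6), read 5′ to 3′ along the gene's strand. They come from the hub near Irf2bp2, the hub between Cebpb and Ptpn1, the hub beside Tnfaip3 and the hub beside Tbc1d1, in that order. Capitals mark a match to an AP-1 site (TGANTCA) or to a PU.1 core (GAGGAAGT) on either strand.
A630001O12Rik (chr8:126848770-126849069, plus strand): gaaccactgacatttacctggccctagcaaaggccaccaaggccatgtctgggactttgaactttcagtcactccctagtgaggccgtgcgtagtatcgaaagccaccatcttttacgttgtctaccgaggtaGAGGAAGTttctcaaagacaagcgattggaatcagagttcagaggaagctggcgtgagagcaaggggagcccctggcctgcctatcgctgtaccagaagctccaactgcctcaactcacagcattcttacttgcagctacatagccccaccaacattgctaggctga
Gm32287 (chr2:167777365-167777664, minus strand): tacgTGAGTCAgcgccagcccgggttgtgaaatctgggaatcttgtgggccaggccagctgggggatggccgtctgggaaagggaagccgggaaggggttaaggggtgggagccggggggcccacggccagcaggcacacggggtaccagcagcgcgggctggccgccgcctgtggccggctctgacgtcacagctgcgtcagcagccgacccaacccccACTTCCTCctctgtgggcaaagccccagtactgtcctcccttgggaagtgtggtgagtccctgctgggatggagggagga
Gm51814 (chr10:19062529-19062828, plus strand): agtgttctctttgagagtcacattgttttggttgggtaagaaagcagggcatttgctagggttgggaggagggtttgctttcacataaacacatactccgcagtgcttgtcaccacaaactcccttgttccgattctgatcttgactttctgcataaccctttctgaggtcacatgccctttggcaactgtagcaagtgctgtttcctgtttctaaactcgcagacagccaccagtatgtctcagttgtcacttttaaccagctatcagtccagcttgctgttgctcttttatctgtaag
Gm43837 (chr5:64377703-64378002, plus strand): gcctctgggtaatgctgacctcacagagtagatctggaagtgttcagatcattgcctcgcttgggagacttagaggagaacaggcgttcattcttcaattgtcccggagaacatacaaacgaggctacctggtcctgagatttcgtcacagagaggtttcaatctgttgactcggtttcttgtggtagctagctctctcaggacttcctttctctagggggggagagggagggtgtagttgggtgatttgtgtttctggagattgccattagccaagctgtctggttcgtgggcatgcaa
The Gm32287 window is 1 of several annotated starts of that gene in its bin. The other Gm32287 windows in the bin held no AP-1 or PU.1 match, nor did those of Gm45805 and Gm15232 at further hubs. The Gm32287 window shown overlaps that of the divergent lncRNA Gm14321, which holds the same PU.1 core. The Gm51814 and Gm43837 windows held neither motif nor the C/EBP palindrome TTGCGCAA. Over the 738 lncRNA starts at member anchors, an AP-1 match was found in 11.0% (95% interval 8.81 to 13.5), in 9.31% of all 11588 lncRNA starts and in 7.81% of all 32851 starts of genes of any kind. The PU.1 core was found in 5.56% (4.02 to 7.46), 3.33% and 3.20% of the same windows, and the C/EBP palindrome in 0.136%, 0.112% and 0.183%. The 738 starts belong to 614 genes, so some windows overlap and count 1 site more than once, which makes the intervals too narrow, and the matches are of letters only.

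MicroRNA genes were rare at member anchors but included several known in myeloid cells. In all, 34 microRNA genes lay in 26 bins, 18 in the sham list and 26 in the day 6 list with 10 in both, and 29 of them were matched to 52 mature sequences of RefSeq. The mature sequences held 7 seeds that recurred. Shown are members of 4 seed families and 2 single microRNAs from day 6, with the seed (bases 2 to 8) in capitals.
mmu-miR-29a-3p: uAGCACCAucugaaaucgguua
mmu-miR-29b-3p: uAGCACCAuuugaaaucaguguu
mmu-let-7b-5p: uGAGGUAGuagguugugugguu
mmu-let-7c-5p: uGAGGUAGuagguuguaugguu
mmu-let-7i-5p: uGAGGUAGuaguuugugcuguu
mmu-miR-17-5p: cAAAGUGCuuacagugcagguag
mmu-miR-20a-5p: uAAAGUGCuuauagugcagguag
mmu-miR-19a-3p: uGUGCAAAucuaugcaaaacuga
mmu-miR-19b-3p: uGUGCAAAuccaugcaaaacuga
mmu-miR-34a-5p: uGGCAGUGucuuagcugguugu
mmu-miR-146a-5p: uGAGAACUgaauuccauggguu
The bin with Mir29a and Mir29b-1, which share the seed AGCACCA, lay beside Lncpint on chromosome 6. It had 2 member interactions in each list, summing to 44 contacts (sham) and 56 (day 6). The bin with Mirlet7b and Mirlet7c-2 had 2 member interactions with 43 contacts in sham and 1 with 19 contacts at day 6, and Mirlet7i had 1 in sham alone. The bin with Mir17, Mir18, Mir19a, Mir20a, Mir19b-1 and Mir92-1, the cluster known as miR-17-92, was listed at day 6 alone, with 2 interactions and 51 contacts. Mir34a, a target of p53, was also listed at day 6 alone, with 4 interactions and 93 contacts, as was Mir146, an inhibitor of NF-kB signalling, with 1 interaction and 19 contacts. A microRNA gene in such a bin says nothing of the level of the microRNA.

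Members made up a smaller share of the day 6 list. They were 8.14% of the interactions in sham (95% interval 7.75 to 8.53, exact binomial) and 6.87% at day 6 (6.64 to 7.12), with 38559 and 72299 contacts, or 7.69% and 6.73% of all contacts of called interactions. All intervals given here reflect counting error alone, and reads lacking molecular identifiers need not be independent molecules. The day 6 list held 1.90 times as many members as the sham list (1.79 to 2.02). The ratio was 1.93 (1.87 to 1.99) for interactions with a gene at 1 anchor and 2.47 (2.42 to 2.53) for those with genes at both. The number of members thus grew like that of interactions with 1 gene end and less than that of interactions between genes.

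Day 6 members were shorter than sham members, whereas interactions with genes were longer at day 6. The median distance between the anchors of a member was 160 kb in sham (quartiles 80 and 325 kb) and 110 kb at day 6 (50 and 290 kb). With a gene at 1 anchor it was 170 kb and 190 kb, and with genes at both anchors 130 kb and 160 kb. Members kept the shorter median at day 6 when only bins that were anchors in both lists were used, at 160 kb in sham and 110 kb at day 6.

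The shift came from the shortest contacts. Members under 50 kb numbered 166 in sham, 10.7% of members (9.21 to 12.3), and 732 at day 6, 24.8% (23.3 to 26.4). That is 4.41-fold (3.72 to 5.25), against 2.71-fold (2.46 to 3.00) with a gene at 1 anchor and 2.88-fold (2.72 to 3.04) with genes at both. From 50 to 200 kb the number of members rose 1.64-fold and from 200 kb to 1 Mb 1.38-fold. From 1 to 2 Mb it rose 3.82-fold (2.78 to 5.33), from 50 to 191, but the classes with genes rose 6.34-fold and 9.70-fold there. Among interactions of 1 to 2 Mb the share of members was therefore 9.67% in sham and 4.65% at day 6.

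Anchors of members were less covered at day 6 at every length, as were those of the classes with genes. The coverage of an anchor relative to the library's typical anchor, taken for the less covered of the 2 anchors, had a median of 0.939 in sham and 0.745 at day 6 for members under 50 kb, 0.961 and 0.781 from 50 to 200 kb, 0.949 and 0.731 from 200 kb to 1 Mb, and 0.902 and 0.721 from 1 to 2 Mb. In the classes with genes this median was also lower at day 6 in each length class. Under 50 kb it was 0.975 in sham and 0.833 at day 6 with a gene at 1 anchor. With genes at both anchors it was 0.966 and 0.886 there. The fall was thus not particular to members. The short members of day 6 were mostly other pairs of bins than those of sham. Of the 732, 48 (6.56%) were also in the sham list, against 14.4% and 13.7% in the classes with genes. Those 48 were 28.9% of the short sham members. Both anchors were among all anchors of the sham list for 42.3% of the 732, against 47.1% and 47.4% in the classes with genes. Neither anchor was among them for 23.6% (20.6 to 26.9), against 18.7% and 19.0% in the classes with genes. The part of depth in the number of short members was not tested.

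**Figure D1:**
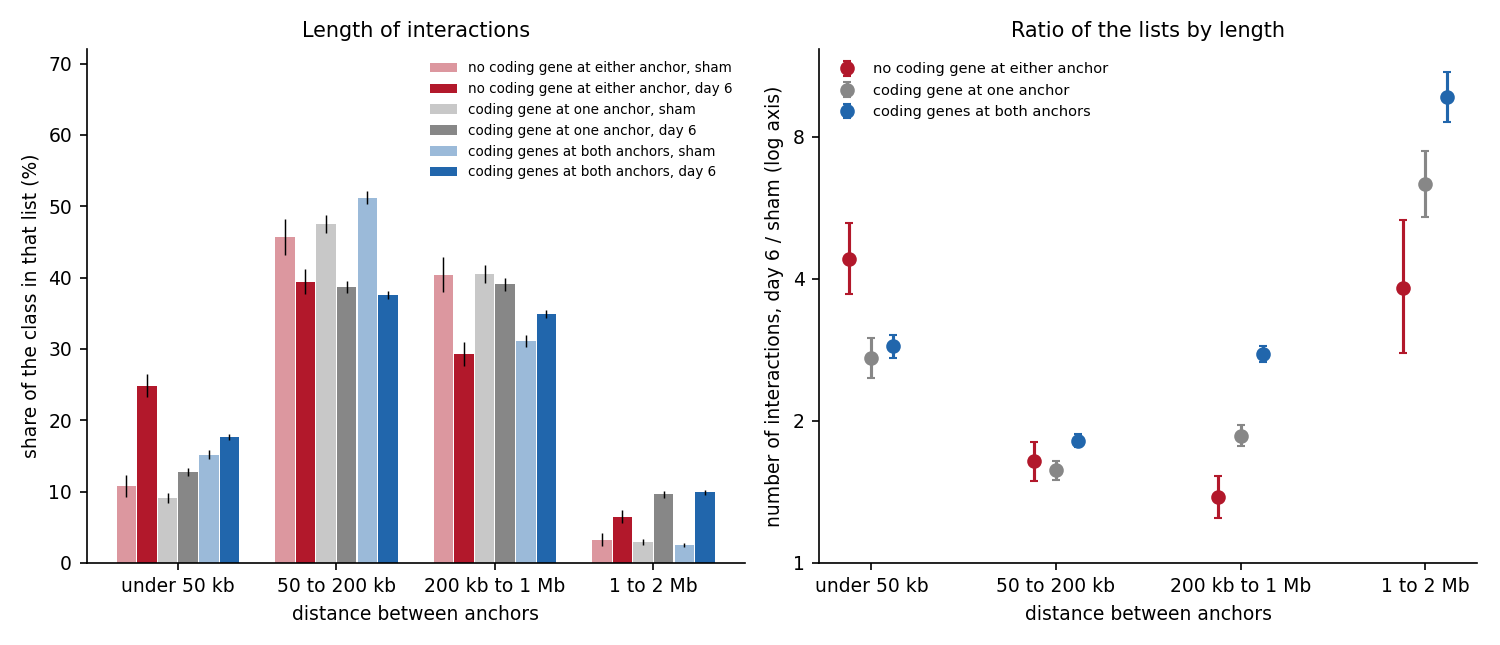
The left panel plots the share of each class of interactions that falls in each length class, for sham (pale) and day 6 (full colour), and the right panel plots the number of interactions at day 6 divided by that in sham on a log axis. Bars and points carry exact 95% intervals for counting error, and the members stand at 24.8% under 50 kb at day 6 and at a 4.41-fold ratio there.

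Many members had no coding gene between their anchors. No coding gene lay between the anchors of 44.3% of sham members (41.8 to 46.8) and of 55.7% of day 6 members (53.9 to 57.6), so that most day 6 members joined elements of the same gene-free stretch. The share was 11.6% and 11.4% with a gene at 1 anchor and 1.40% and 1.16% with genes at both. A gene at an anchor that extended inwards out of its bin was counted as lying between. The lower shares of these classes are thus partly set by their definition. Among members the share followed length, at 93.4% and 95.6% under 50 kb, 54.6% and 64.7% from 50 to 200 kb, and 21.2% and 21.1% from 200 kb to 1 Mb. From 1 to 2 Mb it was 24.0% of 50 sham members and 4.71% of 191 at day 6. The longest member spanned 1990 kb in sham, from a bin near Olig3 to one near Myb, with 14 coding genes between. The longest at day 6 spanned 2000 kb, from near Hpgds to near Serbp1, with 16 genes between, and none of the 5 longest members of either list was in the other list.

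Contacts per member did not differ in the median. It was 20 in both lists (quartiles 15 and 29 in sham, 16 and 28 at day 6), and the ratio of observed to expected contacts had a median of 4.45 in sham and 4.20 at day 6. The relative coverage of the anchors had a median of 1.08 in sham and 0.915 at day 6 for members. It was 1.09 and 1.02 with a gene at 1 anchor, and 1.14 and 1.17 for interactions between genes. Members just inside the 1 kb limit of their definition (an anchor within 5 kb of a gene) numbered 389 and 663, with medians of 21 and 19 contacts. Interactions just outside it (no anchor on a gene but 1 within 1 kb) numbered 198 and 295, with medians of 22 and 20.

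Some sham members were called again at day 6 at the same pair of bins. The 322 shared members were 20.8% of the sham members (18.8 to 22.9), against 24.6% of all sham interactions, and 10.9% of the day 6 members (9.82 to 12.1), against 10.9% of all day 6 interactions. If each anchor could be off by 1 bin, 52.1% of sham members and 26.4% of day 6 members had a counterpart. Both anchors of 83.2% of sham members were anchors somewhere in the day 6 list, and both anchors of 43.7% of day 6 members were anchors in sham. These shares were near those of the other classes, at 83.8% and 45.5% with a gene at 1 anchor and 87.5% and 44.7% with genes at both.

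Shared members had like counts in both libraries. Their medians were 26 contacts in sham and 25 at day 6, and 131 of them had more contacts at day 6, 172 had more in sham and 19 were equal. The shared member with most contacts joined chr10:19030001-19040000 and chr10:19060001-19070000 beside Tnfaip3, which encodes the NF-kB inhibitor A20, with 133 contacts in sham and 121 at day 6. On chromosome 6, between Klf14 and Mkln1, a pair of bins 20 kb apart had 94 and 149 contacts, and a pair 30 kb apart had 128 and 107. Each of these pairs had a bin in Lncpint, an lncRNA induced by p53, and the other bin outside it. A pair 40 kb apart near Btg1, an antiproliferative gene, had 91 and 122. Pairs near Ccr1 (91 and 116), Ier5 (107 and 96), Cxxc5 (86 and 121) and Lrrc28 (94 and 91) and the pair between Cebpb and Ptpn1 (96 and 94) were also among the 10 shared members with most contacts. The 9 pairs given here were 20 to 40 kb long with no coding gene between the anchors.

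The anchors of members lay a median of 27.1 kb from the nearest coding gene in sham and 28.9 kb at day 6. In sham 20.5% lay more than 100 kb away and at day 6 20.3%, and the farthest were 1323 kb and 1633 kb away. The union of both lists held 4622 such bins, and 1305 of them served in both, which is 62.7% of the sham bins and 33.9% of those of day 6. An lncRNA overlapped 35.3% of the anchors in each list, against 14.6% of all 149744 coding-free bins of the annotated chromosomes. A microRNA gene overlapped 0.768% and 0.468% of them, against 0.147%, and no annotated gene of any kind overlapped 58.7% in each list, against 78.5%. Bins with pseudogenes were not more frequent (5.47% and 5.72%, against 6.16%).

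Many member anchors were also joined to coding genes by other interactions. In sham 48.9% of the anchors (46.7 to 51.0) had a called interaction with a bin that held a coding gene, and at day 6 63.4% (61.9 to 65.0). With the day 6 list shortened to the length of the sham list the day 6 share was 42.0%, below that of sham, so the order of the 2 lists depended on their length. Among anchors that reached a gene, the nearest gene was among the genes reached for 29.7% in sham (26.9 to 32.6) and 36.3% at day 6 (34.4 to 38.3). Both anchors of a member had the same nearest gene in 26.8% of sham members and 37.7% of day 6 members.

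The genes reached most often from member anchors were Thada (27 interactions in sham and 41 at day 6), Rreb1 (34 and 28), Bmp2k (28 and 22), Irf2bp2 (19 and 26) and Picalm (13 and 32). Runx1 (19 and 22), Pag1 (18 and 19), Jmjd1c (10 and 23), Prex1 (10 and 23) and Pde3b (19 and 13) followed. Thada, the neighbour of Zfp36l2, was nearest gene of only 2 members in each list, and Jmjd1c of none. Picalm encodes a clathrin adaptor of endocytosis, Runx1 a transcription factor of the myeloid lineage and Prex1 an activator of Rac. Among all coding genes, 4.72% were reached from a member anchor in sham and 13.7% at day 6. An interaction was counted as reaching a gene only from a bin that was a member anchor in the same list. Counts of reached genes, here and by cluster below, thus also depend on which bins were member anchors in each list.

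Member anchors of both lists formed 2723 regions when bins next to each other or 1 bin apart were joined. Of these 1810 (66.5%) were a single bin, and 121 held 5 or more bins. The longest was a 250 kb stretch of 21 anchor bins between Ly86, which encodes the partner MD-1 of the receptor RP105, and Rreb1, a zinc finger transcription factor. It took part in 17 member interactions with 389 contacts in sham and 29 with 783 contacts at day 6. Next were 180 kb stretches beside Trib1 (9 with 306 contacts, then 20 with 632) and between Wwox and Maf (5 with 124, then 23 with 441), and a 170 kb stretch between Cebpb and Ptpn1 (19 with 653, then 25 with 999). Maf encodes a transcription factor of macrophages, and its stretch had the highest log2 ratio of these 4 (0.72, 0.44 to 1.03).

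Regions joined by member interactions formed 824 clusters. A single interaction made up 360 of them, whereas 120 clusters of 10 or more interactions held 2814 of the 4500 members (62.5%, a shared member counted in each list), and the 10 largest held 721 (16.0%). Clusters in both lists numbered 336, in sham alone 108 and at day 6 alone 380. Changes of a cluster were measured as the log2 ratio of day 6 over sham in its share of each library's called contacts, after adding a prior of 5 contacts, and counted when the ratio was at least 1 or at most -1 and 1 list held at least 3 of its interactions. Of 275 clusters with 3 interactions, 69 (25.1%) had a larger share at day 6 and 48 (17.5%) a smaller one. Of the 69, 44 had no member in sham, where contacts below the caller's threshold are unknown. Among the 228 found in both lists, 25 had a larger share and 45 a smaller one. These directions depend on the list length and the scaling, with 25 larger and 61 smaller if both lists are cut to equal length, 132 larger and 13 smaller if shared interactions are set equal, and 203 and 8 if counts are scaled by the contacts that the caller modelled.

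**Figure D2:**
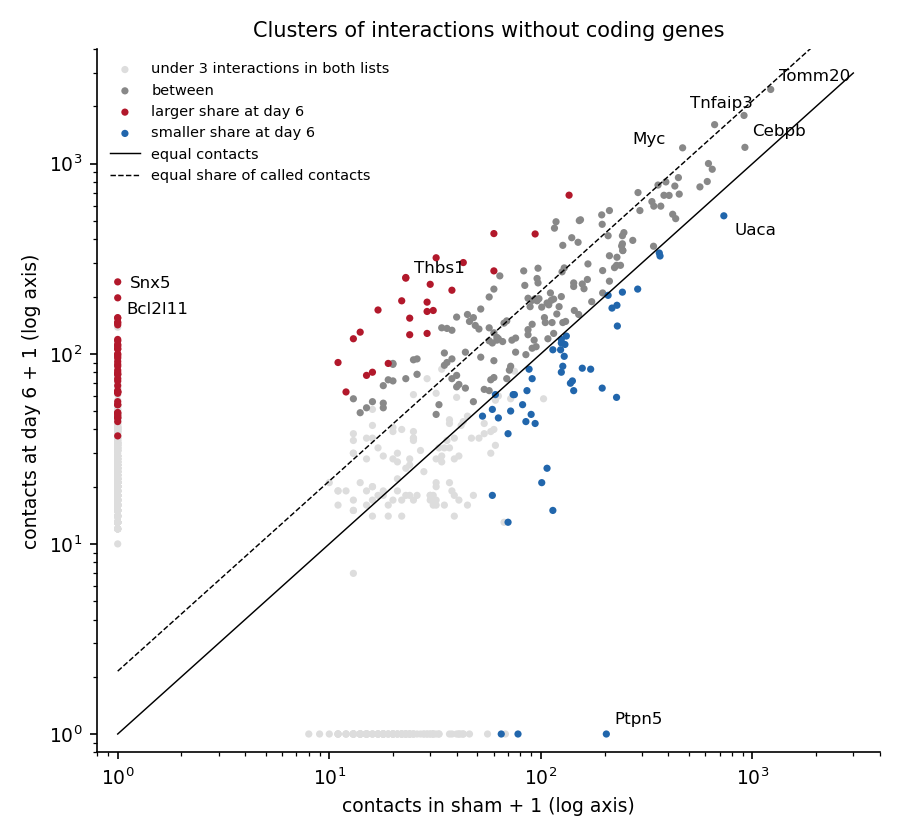
Each point is 1 of 824 clusters, with its summed contacts in sham (x axis) and at day 6 (y axis), both plus 1 on log axes; a cluster not listed in a library stands at 1, and names are those of the most frequent nearest gene. The solid line marks equal contacts and the dashed line equal shares of called contacts; of the 53 clusters with 20 or more interactions, 3 have a larger and 4 a smaller share at day 6, and that of Uaca, at 732 in sham and 531 at day 6, is 1 of the 4.

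The largest cluster surrounded Irf2bp2, which encodes a transcriptional co-repressor, on chromosome 8 (chr8:125280001-128310000). It held 56 members with 1220 contacts in sham and 95 with 2457 at day 6, 15 of them shared. Its share of called contacts hardly moved (log2 ratio -0.09, 95% interval -0.19 to 0.01). Scaling by shared interactions or by modelled contacts raised log2 ratios by about 1.10 or 1.78. The ratios and intervals of the clusters below likewise refer to called contacts, and the sign of small ones can change with the scaling. The core of the Irf2bp2 cluster was the 337 kb stretch without coding genes between Irf2bp2 and Tomm20, a subunit of the mitochondrial import receptor, with 20 and 42 members inside it. The lncRNA Gm31718 in this stretch overlapped 36 and 50 members, more than any other non-coding gene. From the cluster's anchors 19 interactions reached Irf2bp2 in sham and 26 at day 6, and 8 and 12 reached Tomm20.

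The bin at the start of A630001O12Rik (chr8:126840001-126850000), whose sequence is given above, was the most connected member anchor at day 6. It had 8 member interactions with 251 contacts in sham and 14 with 466 at day 6, 6 of them shared. It lies 80.7 kb from Tomm20, its nearest coding gene, yet in both lists it contacted the bins of Irf2bp2, 260 and 250 kb away, with 39 and 51 contacts in sham and 31 and 56 at day 6. A contact with the Tomm20 bin 80 kb away (22 contacts) was listed at day 6 alone.

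The cluster on chromosome 9 from Uaca to Glce went the other way. With 34 members and 732 contacts in sham and 23 members and 531 contacts at day 6, it was the only one of the 10 largest clusters with fewer members at day 6. Its log2 ratio was -1.55 (-1.73 to -1.40) as a share of called contacts but 0.22 when scaled by modelled contacts. The cluster surrounds Tle3, a Groucho-type co-repressor, and Tle3 was the only gene that its anchors reached in sham, by 6 interactions against 5 at day 6. Its hub at chr9:61160001-61170000, 202 kb from Tle3, had 8 members with 288 contacts in sham and 3 with 82 at day 6, with 1 shared. The lncRNA Gm51680 at the Uaca side overlapped 17 and 8 members.

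**Figure D3:**
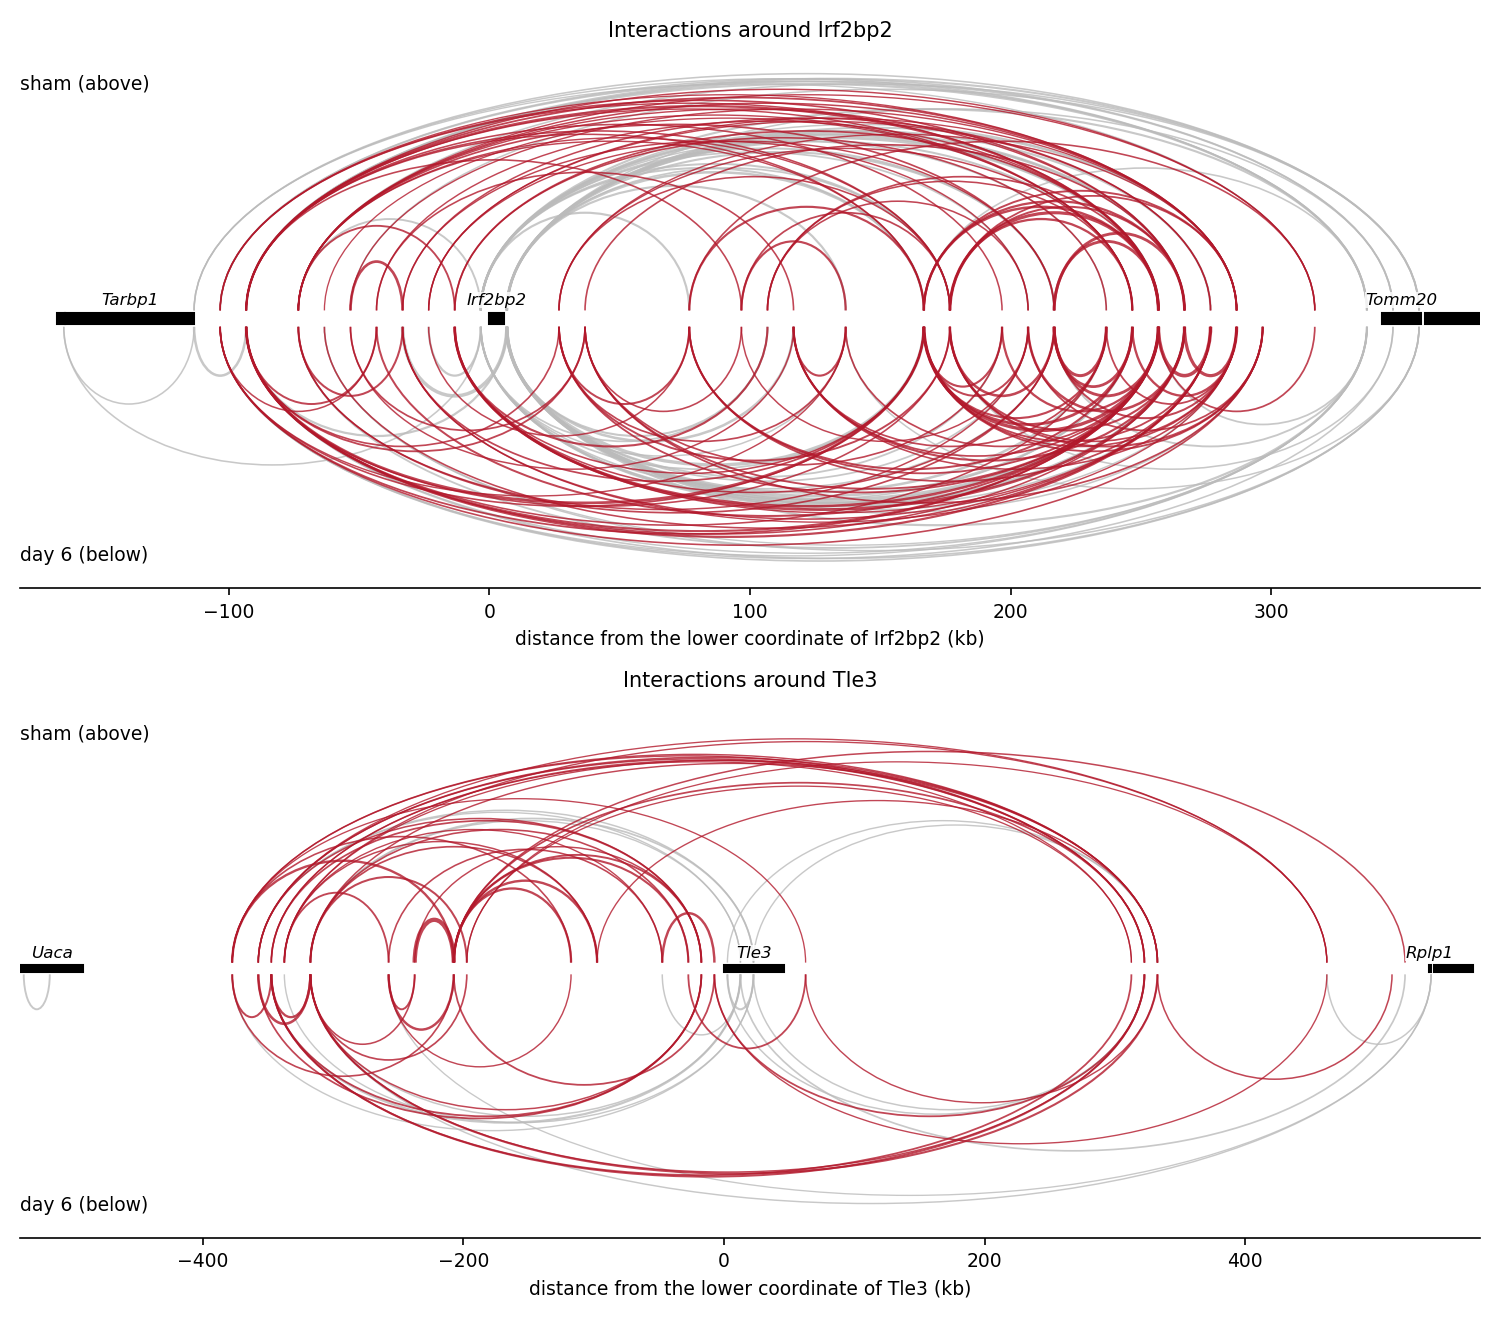
Arcs join the anchors of called interactions in sham (above) and at day 6 (below) around Irf2bp2 and around Tle3, along the distance in kb from the lower coordinate of the gene; members are red, interactions with a coding gene grey, coding genes black bars, and thicker arcs have more contacts. Around Irf2bp2 members fill the gene-free stretch up to Tomm20 in both libraries (51 in sham and 73 at day 6 in this window), and around Tle3 there are more in sham (34) than at day 6 (22).

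The cluster of Tnfaip3 and Ifngr1 on chromosome 10 held 25 members with 662 contacts in sham and 55 with 1604 at day 6 (log2 ratio 0.18, 0.05 to 0.31). Tnfaip3 was reached from its anchors by 4 interactions in sham and 15 at day 6, Ifngr1, a chain of the interferon-gamma receptor, by 1 and 5, and Sgk1, a serum- and glucocorticoid-induced kinase, by 10 and 14. With any bin, Tnfaip3 had 6 called interactions in sham and 19 at day 6. The hub at chr10:19060001-19070000, which holds the Gm51814 start, had 4 members with 191 contacts in sham and 9 with 584 at day 6. Its contacts with the Tnfaip3 bins 60 and 50 kb away were listed at day 6 alone, with 56 and 168 contacts. A member 20 kb long with 197 contacts was listed at day 6 alone too, while the 30 kb member described above had 133 and 121. A further hub at chr10:19180001-19190000, in the lncRNA Gm20139, had 3 members in sham and 10 at day 6, and its contact with Tnfaip3 was listed in both, with 40 and 91 contacts.

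The cluster between Klf14 and Mkln1 on chromosome 6 held 20 members with 921 contacts in sham and 34 with 1218 at day 6 (log2 ratio -0.69, -0.82 to -0.57). Nearly all of it lay in the 440 kb without coding genes between these genes, with 19 and 27 members, and Lncpint overlapped 19 and 26. Klf14, the nearest gene of most of these anchors, had no called interaction of its own in either list. Mkln1 was reached by 3 interactions in sham and 8 at day 6. The hub at chr6:31080001-31090000 had 6 members with 384 contacts and 7 with 436, of which 3 were shared.

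**Figure D4:**
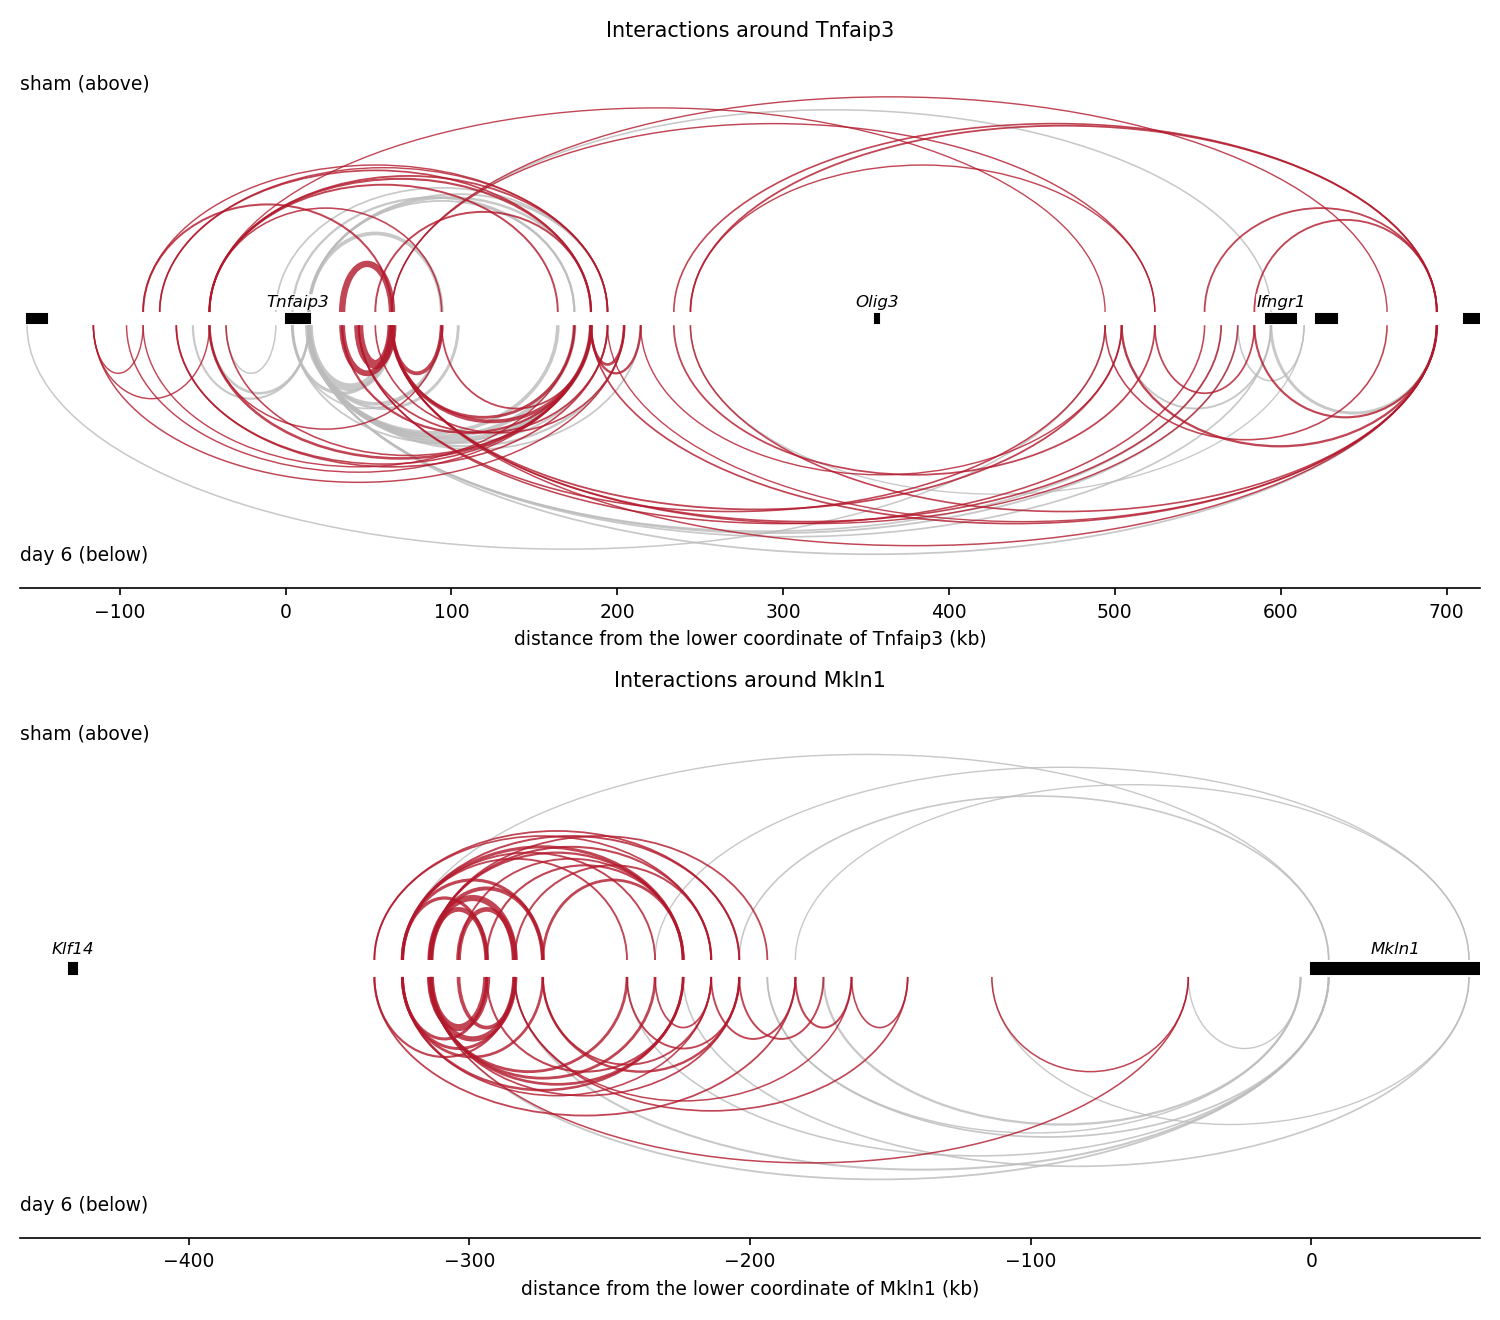
Arcs are drawn as in the map of Irf2bp2, here around Tnfaip3 and around Mkln1, with sham above and day 6 below. Around Tnfaip3 members number 18 in sham and 36 at day 6 in this window and grey arcs to genes 7 and 24, and between Klf14 and Mkln1 the same short thick arcs recur in both libraries.

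The cluster of Cebpb and Ptpn1 on chromosome 2 held 28 members with 912 contacts in sham and 58 with 1793 at day 6 (log2 ratio -0.12, -0.24 to -0.01). Cebpb encodes a C/EBP factor induced in inflammation and Ptpn1 a tyrosine phosphatase. Prex1 was reached by 10 interactions in sham and 23 at day 6, Cebpb by 9 and 6 and Ptpn1 by 1 and 10. With any bin, Cebpb had 12 and 13 called interactions and Ptpn1 had 6 and 23. The hub with the Gm32287 and Gm14321 starts (chr2:167770001-167780000) had 6 members with 323 contacts and 8 with 558. It contacted both bins of Cebpb in both lists, with 48 and 36 contacts in sham and 63 and 38 at day 6, and the Ptpn1 bin at day 6 alone (27 contacts).

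The cluster from Trib1 through Myc to Gsdmc on chromosome 15 held 22 members with 467 contacts in sham and 47 with 1211 at day 6 (log2 ratio 0.27, 0.12 to 0.43). Myc was reached by 7 and 8 interactions, Trib1, a pseudokinase that targets C/EBP-alpha for degradation, by 0 and 4, and Nsmce2, the gene beside it, by 8 and 18. The lncRNA Pvt1 downstream of Myc overlapped 10 and 18 members. The cluster of Runx1 and the interferon receptor genes on chromosome 16 held 15 members with 357 contacts and 35 with 771 (0.01, -0.17 to 0.20). Runx1 was reached by 19 and 22 interactions and Ifngr2 by 2 and 8.

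In the cluster of Zfp36l2 and Haao on chromosome 17 there were 19 members with 619 contacts in sham and 41 with 1001 at day 6 (log2 ratio -0.40, -0.55 to -0.26). Zfp36l2 encodes an RNA-binding protein that speeds mRNA decay. Of the genes reached, Thada had 27 and 41 interactions while Zfp36l2 had 7 in both. The cluster of Dusp6, a phosphatase of ERK kinases, and Atp2b1, a calcium pump, held 23 members with 564 contacts and 37 with 754 (-0.67, -0.84 to -0.52). Dusp6 was reached by 7 interactions in both lists, and Poc1b by 15 and 17. The last of the 10 largest clusters, on chromosome 13 near Snx18, Map3k1 and Il6st, held 18 members with 446 contacts and 36 with 844, with 1 shared. Map3k1, a kinase upstream of JNK, was reached by 1 interaction in sham and 18 at day 6.

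Among clusters found in both lists, that of Thbs1 had the highest ratio, with 1 member of 22 contacts in sham and 9 members with 251 at day 6 (log2 ratio 2.26, 1.78 to 3.11). Thbs1 encodes the matrix protein thrombospondin 1. The cluster of Eps8l3 and Csf1, the latter a growth factor of microglia, had 22 and 249 contacts (2.25, 1.77 to 3.102), and Csf1 itself was reached by 4 interactions at day 6. The cluster of Dnttip2 and F3, the gene of tissue factor, had 31 and 319. Clusters near Zbtb18 (16 and 169) and near P4ha1 and Ddit4, an inhibitor of mTORC1 (13 and 129), followed. Each rested on 1 or 2 members in sham. The calls of Zbtb18 and P4ha1 were lost with lists of equal length, where fewer than 3 members were left, and those of Eps8l3 (0.93) and Zbtb18 at a stricter q-value limit (1e-05).

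The lowest ratio belonged to a cluster near Rtraf on chromosome 14, with 5 members and 113 contacts in sham and 1 member with 14 contacts at day 6 (log2 ratio -3.58, -5.03 to -3.31). The cluster of Fchsd2, P2ry6 and P2ry2 had 4 members with 227 contacts in sham and 3 with 58 at day 6 (-2.93, -3.51 to -2.65). P2ry6 encodes the UDP receptor through which microglia take up debris, and in sham 8 interactions from the anchors reached it, against 2 at day 6. Fchsd2 was reached just as often (8 and 2), and Arap1 at day 6 alone (by 2). The cluster of Hcar2, a receptor of hydroxybutyrate, and Denr had 106 and 24 contacts, that of Ctdp1 and Nfatc1 100 and 20, and that of Ldhb 69 and 12. The calls of Hcar2 and Ctdp1 were lost at the stricter q-value limit, where fewer than 3 members were left.

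Of the clusters in 1 list alone, 4 of the 5 with most contacts were from day 6. They lay near Snx5 (10 members with 238 contacts), Bcl2l11, which encodes the apoptosis inducer BIM (9 with 196), 1110002E22Rik and H2az1 (7 with 154) and Akap13 (5 with 153). With lists of equal length the cluster of Snx5 had fewer than 3 members left. From the cluster of Akap13 12 interactions reached Akap13 itself. The other cluster lay near Ptpn5 and Spty2d1 and was in sham alone, with 7 members and 203 contacts.

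Seen by stretches between neighbouring coding genes, 686 sham members and 1644 day 6 members had both anchors in the same stretch. These lay in 234 and 553 of the 19697 stretches, 186 of them in both lists. Stretches with members had a median width of 166 kb, against 17.3 kb for all. That difference is partly set by the rule, since a stretch had to contain both whole 10 kb bins, at least 20 kb apart. Narrow stretches could therefore hold no member. After Irf2bp2 to Tomm20 and Klf14 to Mkln1, most members lay between Cebpb and Ptpn1 (17 in sham and 23 at day 6), Kcnrg and Dleu7 (16 and 22, at the lncRNA Dleu2), Ly86 and Rreb1 (13 and 24) and Anxa3 and Bmp2k (13 and 22). Between Wwox and Maf there were 3 members with 88 contacts in sham and 23 with 459 at day 6, none of them shared (log2 ratio 1.25, 0.95 to 1.63). Between Uaca and Tle3 there were 18 with 503 contacts and 13 with 328 (-1.69, -1.92 to -1.51). The stretches were added as a unit after the clusters had been seen.

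The hub beside Bmp2k, a kinase of the numb-associated family (chr5:96980001-96990000), and the hub at the start of Gm43837 beside Tbc1d1 (chr5:64370001-64380000) had most members in sham, 9 each. The Bmp2k hub had 424 contacts in sham and 6 members with 249 contacts at day 6, all its member contacts lying within 130 kb in sham. The Gm43837 hub had 198 contacts in sham and 6 members with 124 at day 6, all its sham members reaching 230 to 530 kb. In the latter, contacts with bins of coding genes numbered 3 in sham and 12 at day 6, among them 3 with bins of Tbc1d1 itself (23, 50 and 62 contacts) that were not listed in sham. Hubs were few, since 68.9% of the anchors in sham and 66.8% at day 6 had a single member interaction and 35 and 70 anchors had 5 or more.

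Among the autosomes, members were most frequent on chromosome 13, at 18.1% of sham interactions (15.5 to 20.9) and 14.5% of day 6 interactions (12.8 to 16.4), and on chromosome 10, at 14.7% and 13.4%. They were least frequent on chromosomes 7 (4.13% and 3.44%) and 11 (5.17% and 3.26%).

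The coding genes nearest to member anchors numbered 1111 in sham (5.08% of all coding genes) and 1845 at day 6 (8.43%), 815 of them in both. By the same rule of size as for clusters, 151 of 552 nearest genes (27.4%) had a larger share of contacts in members at day 6 and 135 (24.5%) a smaller one, with a median log2 ratio of -0.10. No sham member was nearest to 113 of the 151. The gene lists below were read against these shares.

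Of 26 genes of the reparative and disease-associated state of microglia, 7 were nearest gene of a member in sham and 12 at day 6, a growth like that over all coding genes. Of the 7 with at least 3 members in a list, 4 had a larger share at day 6 and none a smaller one (median log2 ratio 1.35). Of these, 3 had members at day 6 alone, namely Csf1 (5 members with 145 contacts), Lpl, which encodes lipoprotein lipase (4 with 97), and Igf1, a growth factor of repair (3 with 55). Ch25h, which encodes cholesterol 25-hydroxylase, had 1 member with 17 contacts in sham and 5 with 103 at day 6 (1.35, 0.75 to 2.33). With lists of equal length Csf1 (41 contacts at day 6), Lpl (53) and Igf1 (22) had fewer than 3 members, so that only Ch25h kept its call, and Csf1 and Igf1 also lost theirs at the stricter q-value limit. Cd9 (159 and 196 contacts), Cd83 (124 and 146) and Fabp5 (55 and 177) stayed between the limits.

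Inflammatory genes of the NF-kB response were nearest gene of members for 4 of 28 in sham and 10 at day 6. Of 6 with at least 3 members, 3 had a larger share at day 6 and 2 a smaller one. Il1b had 5 members with 136 contacts, Il1a, its neighbour, 4 with 89, and Nfkbiz, an atypical inhibitor of NF-kB, 4 with 73, all at day 6 alone, and 1 member was common to Il1a and Il1b. Of these 3, Il1a and Nfkbiz had fewer than 3 members left with lists of equal length (38 and 25 contacts) and at the stricter q-value limit (58 and 25), and Il1b kept its call in both. Tnfaip3 had 11 members with 355 contacts in sham and 26 with 991 at day 6 (log2 ratio 0.38, 0.21 to 0.56). Il6 had 4 with 93 contacts in sham and 2 with 42 at day 6 (-2.08, but -0.43 when scaled by modelled contacts), and Ccl3 3 with 83 and 3 with 63 (-1.40, but 0.27 when scaled by modelled contacts). The median of the 6 lay between Tnfaip3 and genes without a sham member and is not given.

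Microglial transcription factors were the list with most members, with 21 of 35 genes as nearest gene in sham and 24 at day 6. The list also held Zfp36l2, the gene of an RNA-binding protein, with 11 members in sham and 21 at day 6. Of 17 with at least 3 members, 1 had a larger share at day 6 and 6 a smaller one (median -0.47). The larger was Klf6, a zinc finger factor, with 4 members and 93 contacts in sham and 17 and 445 at day 6 (1.13, 0.83 to 1.498), but its ratio was 0.92 with lists of equal length, under the limit. Those with a smaller share included Irf8 (293 and 213 contacts), Mef2a (268 and 221), Sall1 (137 and 69), Ets1 (58 and 17) and Klf2 (229 and 139), and no call of these 5 held when scaled by modelled contacts, where Irf8 and Mef2a turned above 0 and Sall1 was at -0.29, Klf2 at -0.03 and Ets1 at -0.94. Sall1, a factor of microglial identity, had 8 members in sham and 4 at day 6 (-1.99, -2.53 to -1.66). Runx1 (168 and 506 contacts), Maf (117 and 423), Klf4 (123 and 368) and Bcl6 (29 and 123) had larger shares within the limits.

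Homeostatic genes of microglia were nearest gene of members for 10 of 30 in sham and 11 at day 6. Of 6 with at least 3 members, 3 had a smaller share (Sall1, Rhob and Bin1, the last 2 with 84 and 66 and with 108 and 100 contacts, above 0 when scaled by modelled contacts) and 1 a larger one (Tgfbr2, a TGF-beta receptor chain, 18 and 88, the call lost with lists of equal length). The median was -0.89. AP-1 and immediate early genes had 10 and 11 of 20 as nearest gene, and of 6 with at least 3 members none had a larger share and 2 a smaller one, namely Ier5 (230 and 199) and Dusp6 (375 and 297), both above 0 when scaled by modelled contacts (median -0.73). Fos had 195 and 209 contacts, Jun 83 and 228 and Atf3 188 and 454.

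Chemokine receptor genes were nearest gene for 6 of 15 in sham and 7 at day 6, and of 4 with at least 3 members 1 had a larger share and 2 a smaller one (median -0.72). Ccr6 had 1 member with 15 contacts in sham and 4 with 170 at day 6 (2.18, 1.64 to 3.27), a call lost with lists of equal length and at the stricter q-value limit, where fewer than 3 members were left. Ccr1 had 8 members with 322 contacts and 12 with 597. Its neighbour Ccr2 had a smaller share (92 and 80 contacts, above 0 when scaled by modelled contacts) and shared 5 of its 5 members with Ccr1, so these genes are not independent. Ccr2 is also a marker of monocytes.

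**Figure D5:**
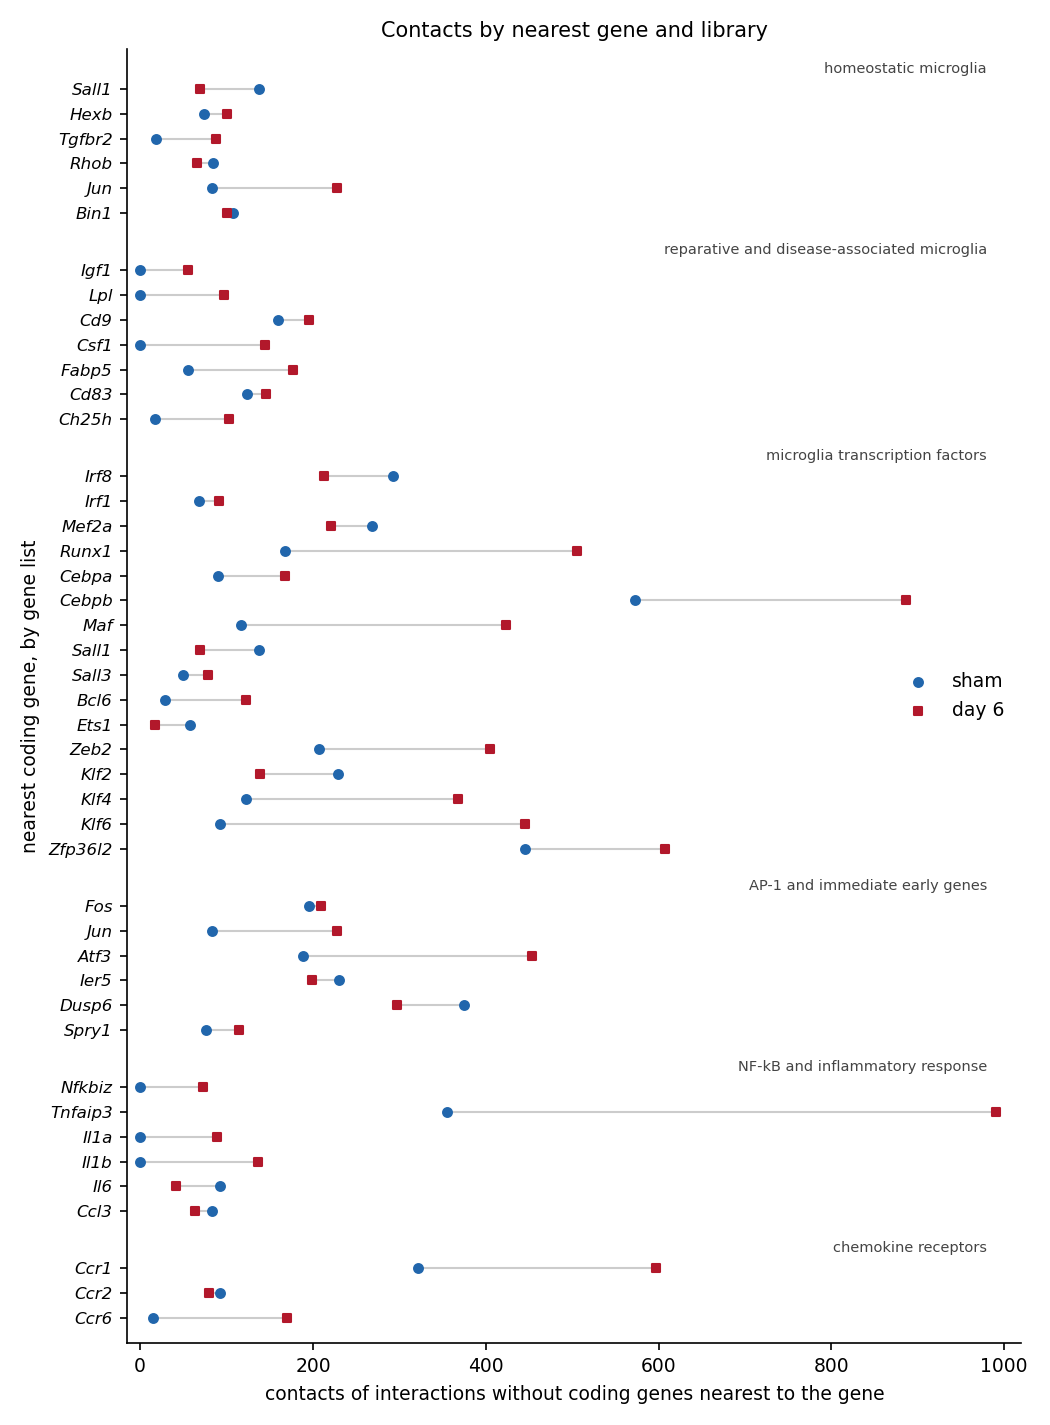
For the listed genes reported here, with at least 3 members in a list as nearest gene, the x axis gives the summed contacts of those members in sham (blue circles) and at day 6 (red squares), grouped by gene list; Sall1 and Jun are in 2 lists each. Csf1, Lpl, Igf1, Nfkbiz, Il1a and Il1b are at 0 in sham, which means not listed, and Tnfaip3 reaches 991 at day 6.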

How the data were processed

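HiChIP libraries of 1 sham and 1 day 6 sample were analysed from the authors' lists of called interactions. The submitters' processing notes name HiC-Pro 3.1.0 and the build mm10 (GRCm38); which caller was used is not stated there or in any other source used here. Per the file headers, the deposited contact counts and anchor coverage are whole counts, the bias of an anchor is a ratio (called relative coverage), the expected counts come from the caller's model, and the probabilities are fractions. The deposited p-values and q-values are the caller's, with all q-values under 0.001, and other deposited columns are flags. Interactions join 10 kb bins 20 to 2000 kb apart.

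Genes, lncRNA starts and sequences came from RefSeq (GRCm38.p6, the assembly of mm10). Members, regions, clusters, log2 ratios (prior of 5 contacts) and exact 95% intervals were computed with Python 3.11.15, pandas 2.3.3, NumPy 2.4.6 and SciPy 1.17.1. The log2 call was tested on Poisson counts simulated for fixed clusters, without a caller's threshold or variation between libraries. Intervals of log2 ratios are binomial and leave out the prior. Contacts below the caller's threshold are unknown, and the depth of the libraries beyond called interactions is not analysed here.

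Named were the 10 clusters with most members, the 5 with highest and lowest ratio and the 5 largest in 1 list, the most connected anchors, the 10 strongest shared and 5 longest members, the 15 leading nearest and reached genes, the 10 leading non-coding genes, microRNAs, and up to 4 genes per list; further list genes and regions were named after their values were seen, and a few items that the rule names are not reported here. The members and the 12 gene lists were chosen with earlier results of these data known. Alternatives changed the flank, the genes, the q-value limit, list length, scaling, prior and joining of bins.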

Additional observations from a re-analysis of the deposited data

How the results depend on the processing

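Values are given as sham and day 6. Without a flank around genes, members were 9.18% and 7.56% of the lists, 53.5% of day 6 members had no gene between their anchors, and anchors lay 23.4 and 25.4 kb from a gene. With a flank of 5 kb these were 6.10% and 5.33%, 51.0% and 63.8%, and 38.3 and 41.0 kb. With all annotated genes in place of coding genes they were 2.42% and 2.17%, 14.3% and 31.9%, and 9.32 and 11.7 kb; 58.1% and 69.9% of anchors reached a gene, 9.34% of day 6 members were shared, and 35 clusters had a larger and 24 a smaller share at day 6. With q-values of at most 1e-05, 16.4% and 7.02% were shared, 38.3% and 57.9% had no gene between, 36.7% and 46.1% of anchors reached a gene, and sham anchors lay 23.9 kb from a gene. With lists of equal length, 12.1% and 14.1% were shared, 42.0% of day 6 anchors reached a gene, and 25 clusters had a larger and 61 a smaller share. Allowing anchors to differ by 1 bin, 52.1% and 26.4% were shared.

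Scaling by shared interactions moved log2 ratios by 1.10, by modelled contacts 1.78 and by member contacts 0.19. Clusters with a larger or smaller share then numbered 132 and 13 with shared interactions and 203 and 8 with modelled contacts. The ratio of Uaca as nearest gene turned to 0.036 with shared interactions. With modelled contacts these turned positive: the cluster of Uaca (0.22), Bin1 (0.55), Ccl3 (0.27), Ccr2 (0.46), Dusp6 (0.34), Ier5 (0.46), Irf8 (0.22), Mef2a (0.40), Rhob (0.32), Tbc1d1 (0.24) and Uaca (0.71). The cause was not tested beyond these constructions. Of the 86 named clusters and genes, 41 had a call. Besides those with a turned sign, 15 of these lost their call with lists of equal length and 17 at the stricter q-value limit. With shared interactions 13 lost it, with modelled contacts 5 and with member contacts 2. All of these kept their direction. Scaling by shared interactions and by modelled contacts each gave a call to 13 others in their own direction. Restricting both lists to bins that are anchors in both was added after seeing the data. The contacts of called interactions limit all values. No paired analysis was possible because each group has 1 library.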
